A study of Bos taurus and Ovis aries and Capra hircus with 18 samples.

Results

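The genes of the mitochondrial genome were followed in brain and skeletal muscle of cattle, sheep and goat. Members were all gene rows placed on the molecule named MT in the count tables, without regard to their values. These were 109 rows of 81356 in the 3 species together, with 37 of 27607 rows in cattle, 35 of 26478 in sheep and 37 of 27271 in goat. Cattle and goat carried 13 protein-coding rows, 2 rRNA rows and 22 tRNA rows each. Sheep carried 11 protein-coding rows, without rows for ATP8 and ND4L, and the same numbers of rRNA and tRNA rows. Cattle symbols came from the coordinates of the cattle reference, which were identical for 37 of 37 rows, and 35 rows were matched over the 3 species by their start on the molecule to within 20 bases.

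The study sequenced RNA from adult brain and adult muscle of Bos taurus, Ovis aries and Capra hircus, with 3 libraries per species and tissue, called A, B and C. RNA was extracted with TRIzol from frozen whole tissue, polyadenylated RNA was enriched on oligo(dT) beads, and cDNA was made with random hexamers. Region of the brain, name of the muscle, breed, sex and treatment were not given, and no label says whether a letter marks the same animal in both tissues. Where nothing says that libraries of a group came from separate animals, p-values measure only the spread between these libraries.

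The mitochondrial genome is a small circular DNA that is transcribed from both strands as long precursors, from which tRNAs are cut out and so free the mRNAs and rRNAs between them. Its mRNAs encode core subunits of respiratory complexes I, III and IV and of ATP synthase, its rRNAs form the mitochondrial ribosome, and all other proteins of the organelle come from nuclear genes. Mitochondrial mRNAs carry short poly(A) tails in mammals, rRNAs very short ones, and mature tRNAs end in CCA without such a tail. Brain and muscle both depend on oxidative phosphorylation, and slow muscle fibres hold more mitochondria than most fast fibres. In tissue libraries, fewer cells of a type and less RNA per cell cannot be told apart.

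Libraries held 20730803 to 58514630 counts on 17204 to 20221 genes. Levels are CPM, the counts of a row per 1000000 counts of the library, and CPM per kb where genes are compared with each other. A count of 0 allows a level of up to 3 counts, which is 0.0513 to 0.145 CPM by library. Markers matched the labelled tissues. Neuron markers (SNAP25, SYT1, RBFOX3, SYP and NEFL, as far as a row carried the name) summed to 709 to 8074 CPM in brain and 0.173 to 2.06 CPM in muscle, with SNAP25 or SYT1 at 0 in a sheep muscle library. Skeletal muscle markers summed to 26.2 to 90.0 CPM in brain and 64635 to 134606 CPM in muscle. Sheep brain C had 709 CPM of neuron markers against 2839 and 3479 in B and A, and goat muscle C had 7707 CPM of slow fibre markers against 24971 and 25168 in B and A. Goat brain A, the goat brain library of highest mitochondrial share, had 32227 CPM of oligodendrocyte markers against 6898 and 6230.5 in B and C. Cattle muscle A had 39899 CPM of slow and 22275 CPM of fast fibre markers, against 13283 and 62668 in B and 19961 and 41697 in C. The part of these marker levels in the mitochondrial values was not tested.

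Both sheep C libraries stood apart from sheep A and B in how their mitochondrial counts were spread over the genes, in brain and in muscle alike. CYTB, the mitochondrial subunit of complex III, had 213139, 218210 and 81 counts in sheep brain A, B and C and 166654, 197540 and 102 in muscle. The mean CPM of A and B was 2985 times that of C in brain and 1712 times in muscle, so both C libraries were nearly without CYTB counts. ND2, COX2 and ATP6 went the other way, with C at 6.28, 7.06 and 6.37 times the mean of A and B in brain. Over the 13 rRNA and protein-coding rows that all 3 species share, Spearman correlations of CPM per kb lay between 0.670 and 0.786 for a sheep C library with an A or B library, and between 0.923 and 0.978 within C and within A and B. Genes of one molecule share their library, so these are descriptions. Sheep log2 differences of ND1, ND5, CYTB, COX1 and the small rRNA are therefore given with and without both C libraries. Those of the other sheep rows are given with all libraries only.

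**Figure D1:**
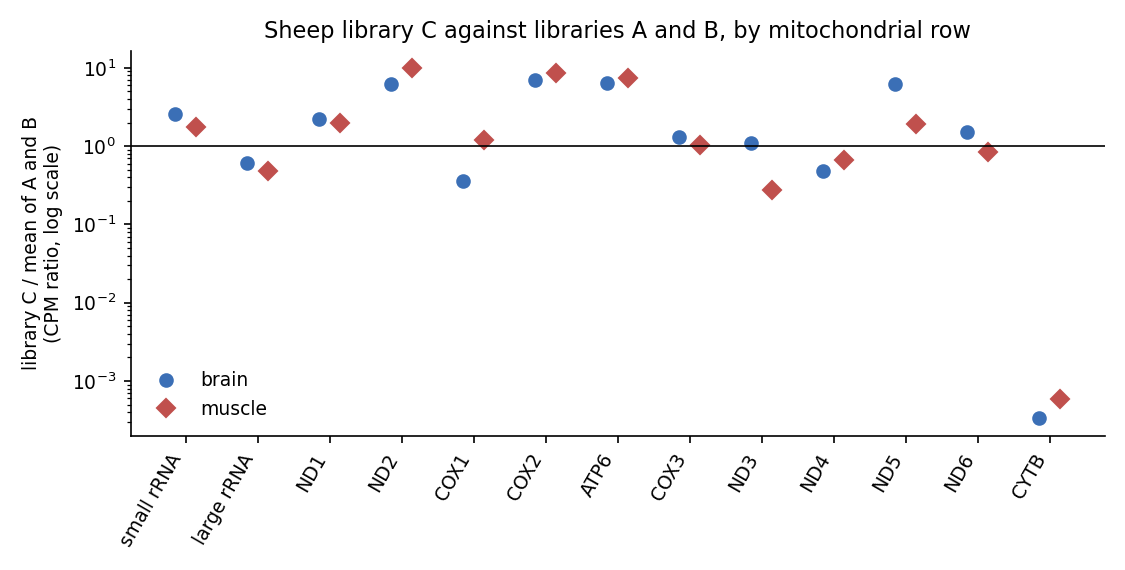
CPM of sheep library C divided by the mean CPM of libraries A and B, on a log axis, for each of the 13 mitochondrial rRNA and protein-coding rows in brain (circles) and muscle (diamonds); the line marks equality. The mean of A and B is 2985 times C for CYTB in brain and 1712 times in muscle, while ND2, COX2 and ATP6 lie 6.28 to 9.89 times above it.

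Mitochondrial rows took a far larger part of the cattle libraries than of the others. In cattle brain their share of the library total was 23.96%, 26.6% and 22.9% in A, B and C, and in cattle muscle it was 10.6%, 10.1% and 9.67%. Every cattle brain library lay above every cattle muscle library, and the group means of 24.5 ± 1.896% and 10.1 ± 0.474% (SD, n = 3 each) differed 2.42-fold. Sheep shares were 4.95%, 4.48% and 2.67% in brain and 2.56%, 2.92% and 2.63% in muscle, and the tissues overlapped through brain C. Goat shares were 4.02%, 3.71% and 2.29% in brain and 1.497%, 1.94% and 3.16% in muscle, and they overlapped through brain C and muscle C. The lowest cattle library, muscle C at 9.67%, exceeded the highest library of the other species, sheep brain A at 4.95%. Wilson 95% intervals of these shares were at most 0.0256 percentage points wide and cover counting error only.

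**Figure D2:**
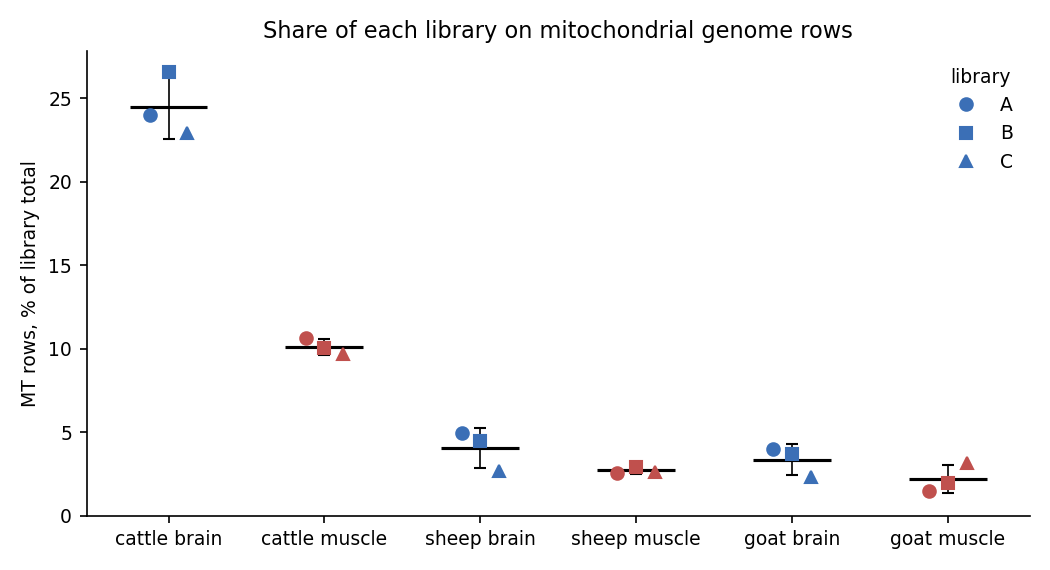
Percent of each library's counts on mitochondrial rows (vertical axis) for the 6 groups, with circles, squares and triangles for libraries A, B and C, a bar at the group mean and its SD. Cattle brain lies between 22.9% and 26.6% and cattle muscle between 9.67% and 10.6%, while no sheep or goat library passes 4.95%.

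Within that share, cattle counts were spread over the whole molecule and sheep and goat counts fell on a few rows. Over the 11 protein-coding rows shared by the species, the highest and lowest CPM per kb differed 7.38- to 10.2-fold in the 6 cattle libraries, 60.6- to 166-fold in goat and 4240- to 12964-fold in sheep. COX1 was the highest of these rows in all 6 cattle libraries and in 5 of 6 sheep libraries, with COX3 highest in sheep brain C. ND2 was the highest in 5 of 6 goat libraries, with COX3 highest in goat muscle B. Spearman correlations of the 13 shared rRNA and protein-coding rows ranged from 0.852 to 0.995 between cattle libraries and from 0.841 to 0.995 between goat libraries. Between cattle and sheep they were 0.522 to 0.747, and between cattle and goat -0.0989 to 0.604. Species were counted against their own gene models, and how reads with several matches were treated is not given in the sources used here, so levels between species are set side by side without a test.

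**Figure D3:**
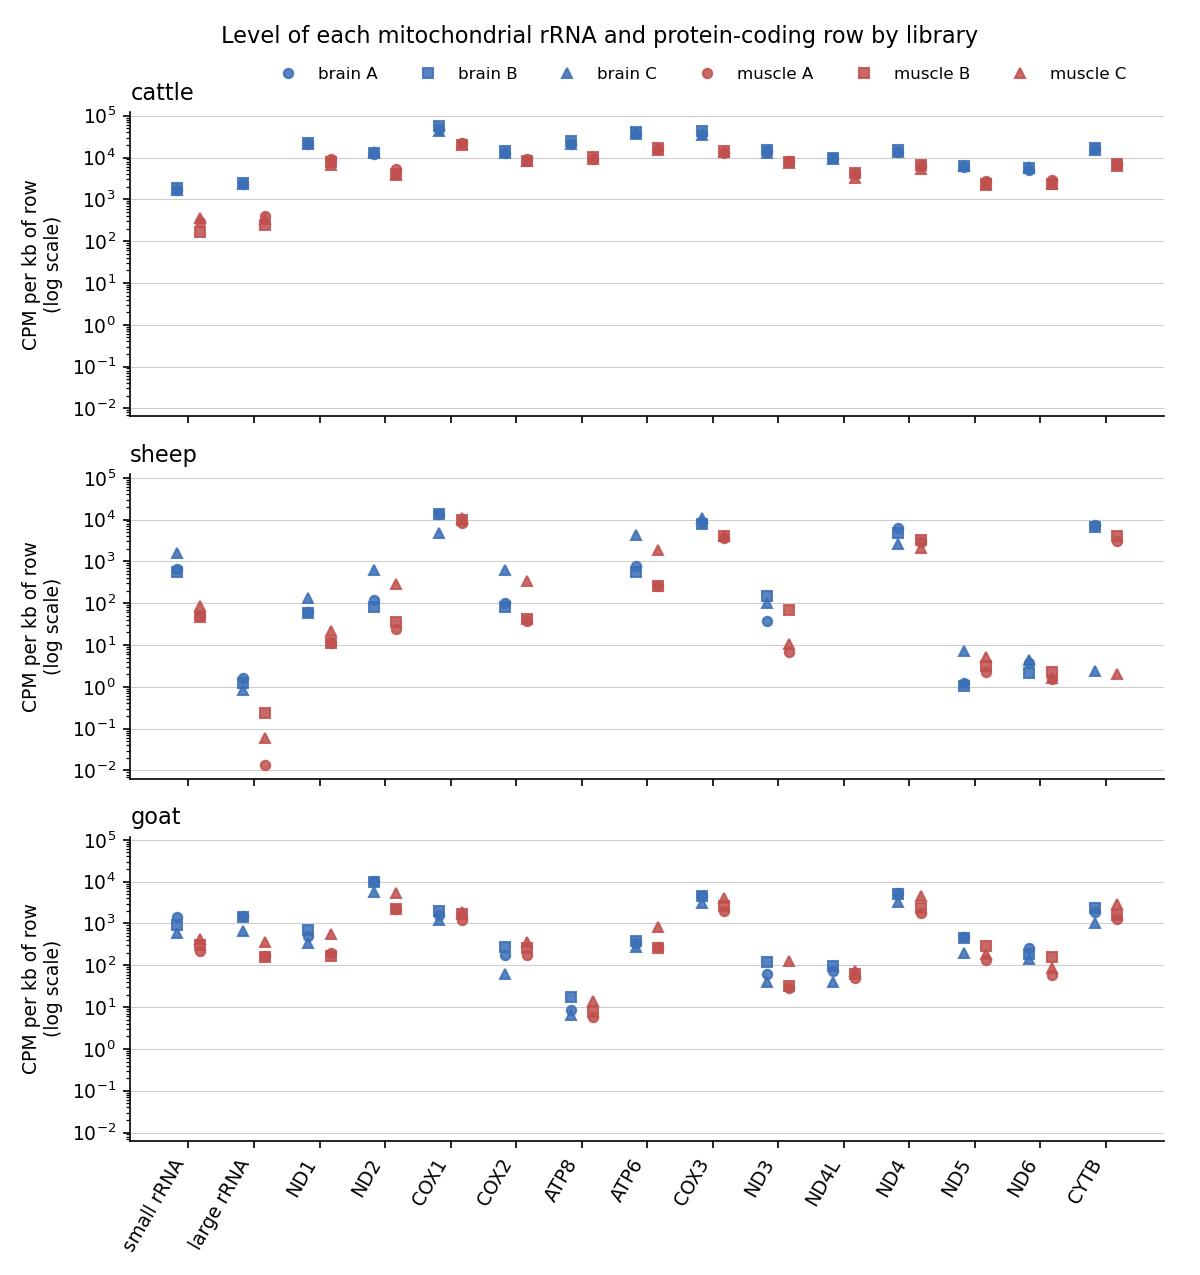
CPM per kb of row, on a log axis, for the 2 rRNA and 13 protein-coding rows in map order in cattle, sheep and goat, with brain in blue, muscle in red and circles, squares and triangles for libraries A, B and C. Cattle protein-coding rows keep within 10.2-fold of each other in each library, while in sheep the large rRNA, ND5 and ND6, and CYTB in the C libraries, fall below 10 CPM per kb.

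Tests compared brain with muscle by edgeR's quasi-likelihood test over all genes, with trimmed-mean (TMM) scaling. A row was called at a Benjamini-Hochberg adjusted p below 0.05 and at least a 2-fold change. Log2 differences are brain minus muscle. The scaling moved these values. With library totals alone in place of TMM, the median log2 difference of all genes moved from 0.09 to 0.76 in cattle, from 0.17 to 1.11 in sheep and from 0.12 to 0.86 in goat. The share of called genes that were higher in brain moved from 57.3% to 75.9%, from 59.8% to 83.4% and from 57.5% to 77.8%. TMM differences are thus relative to the bulk of genes, and CPM values are relative to the library. Both are given.

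Complex I, which takes electrons from NADH, has 7 mitochondrially encoded subunits, ND1 to ND6 and ND4L. Together they held 30.7% ± 1.34 of mitochondrial counts in cattle brain and 29.7% ± 1.94 in cattle muscle (SD, n = 3), against 49.7% ± 1.27 and 36.4% ± 3.94 in goat and 16.6% ± 1.28 and 14.4% ± 2.15 in sheep. ND4 carried most of this in sheep, and ND2 and ND4 in goat. ND4, at MT:10529-11906 in the cattle files (ARS-UCD1.2 per the submitters' processing notes), had 8558, 6613 and 3674 CPM in sheep brain A, B and C and 7422, 6991 and 4389 CPM in goat brain. Per kb, the ND4 mean in brain was 32.6% of the cattle value in sheep and 32.5% in goat, while ND5 in brain was at 0.0511% in sheep and 5.96% in goat.

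ND1 in cattle had 20206, 21661 and 19597 CPM in brain and 8571, 7618 and 6203 CPM in muscle. In sheep it had 58.98, 54.6 and 125 CPM in brain and 10.5, 10.4 and 20.9 CPM in muscle, well apart in both species. Its log2 difference in sheep was 1.64 ± 0.54 (SE, adjusted p = 0.042), the only protein-coding row called there (11 tested, where 28.5% of all genes were called higher in brain and 19.2% higher in muscle). Without both sheep C libraries it was 1.38 ± 0.15 (SE, adjusted p = 2.7e-04), and it lost the call in 5 of 14 alternatives. In cattle the difference was 0.79 ± 0.28 (SE, adjusted p = 0.028) and stayed under the 2-fold limit.

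ND2 stood out in goat, with 10778, 10342 and 5990.0 CPM in brain and 2349, 2335 and 5577 CPM in muscle. All brain libraries lay above all muscle libraries, and muscle C lay close to brain C. The log2 difference was 0.61 ± 0.48 (SE, adjusted p = 0.3), and without goat muscle C it was 1.23 ± 0.36 (SE, adjusted p = 0.016) and was called. Its share of mitochondrial counts was 26.8, 27.9 and 26.2% in goat brain and 15.7, 12.01 and 17.6% in goat muscle. In cattle brain that share was 5.38, 4.96 and 6.06%.

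ND5 was nearly uncounted in sheep, with 58, 57 and 399 counts in brain and 196, 246 and 411 counts in muscle, against 642486 in cattle brain A. C was the highest library in both sheep tissues. Over all sheep libraries the log2 difference was -0.96 ± 0.87 (SE, adjusted p = 0.39), and without both C libraries it was -2.27 ± 0.27 (SE, adjusted p = 4.3e-04) and was called lower in brain. ND6, the only mRNA on the other strand, had 50, 33 and 71 counts in sheep brain. The ND6 row overlaps the end of ND5 on the opposite strand, and whether counting used strand is not given in the sources used here, so reads in the overlap cannot be told apart. ND3 ranged over 13.1, 51.03 and 34.9 CPM in sheep brain with no order by the C library, and ND4L, with a row in cattle and goat, had 2834, 2901 and 2746 CPM in cattle brain and 21.2, 28.6 and 11.9 CPM in goat brain.

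Complex III passes electrons from ubiquinol to cytochrome c and has a single mitochondrially encoded subunit, CYTB, at MT:14514-15653 in cattle. Cattle had 18008, 19387 and 17478 CPM in brain and 7814, 7943 and 7182 CPM in muscle. Goat had 2196, 2728 and 1145 CPM in brain and 1455, 1811 and 3333 CPM in muscle, with overlapping tissues. In sheep the A and B libraries had 8471 and 7418 CPM in brain and 3599 and 4522 in muscle, and the C libraries 2.66 and 2.37 CPM. The sheep log2 difference was -0.08 ± 2.29 (SE, adjusted p = 0.98) with all libraries and -0.08 ± 0.21 (SE, adjusted p = 0.74) without both C libraries. As a share of mitochondrial counts, goat muscle lay above goat brain in all libraries, 9.72, 9.32 and 10.5% against 5.47, 7.35 and 5.01%, while cattle tissues overlapped.

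Complex IV, cytochrome c oxidase, reduces oxygen and takes its core subunits COX1, COX2 and COX3 from this molecule. They held 46.6% ± 1.94 of mitochondrial counts in cattle brain and 48.9% ± 1.95 in cattle muscle (SD, n = 3), 60.5% ± 2.67 and 67.1% ± 8.87 in sheep and 17.4% ± 1.84 and 22.7% ± 2.40 in goat. COX1, at MT:5687-7231 in cattle, had 74402, 86436 and 67149.5 CPM in cattle brain and 34941, 31051 and 33310.2 CPM in cattle muscle. In sheep it had 21372, 21314 and 7562 CPM in brain and 12847, 15053 and 16949 CPM in muscle. Brain C was the low sheep library, under all muscle libraries, and the log2 difference was -0.83 ± 0.39 (SE, adjusted p = 0.11), or -0.44 ± 0.22 (SE, adjusted p = 0.11) without both C libraries. Goat COX1 had 2406, 2999.5 and 1832 CPM in brain and 1863, 2592 and 2831 CPM in muscle, with overlapping tissues.

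COX1 made up a larger share of mitochondrial counts in muscle than in brain in every sheep and goat library, with 50.2, 51.5 and 64.4% in sheep muscle against 43.2, 47.6 and 28.3% in sheep brain. Goat shares were 12.4, 13.3 and 8.96% and 5.99, 8.08 and 8.02%. Cattle shares overlapped, with 32.9, 30.9 and 34.4% in muscle and 31.05, 32.5 and 29.3% in brain. A share within the molecule shows unequal change and not which row changed.

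COX2 in cattle had 8874, 9543 and 8848 CPM in brain and 6357, 5531 and 5705 CPM in muscle, the smallest ratio of the 13 rows at 1.55 against 1.81 to 2.90 for the others. Its share of cattle mitochondrial counts was 3.703, 3.59 and 3.87% in brain and 5.99, 5.503 and 5.898% in muscle, without overlap. Goat COX2 had 118, 187 and 42.3 CPM in brain and 124, 173 and 246 CPM in muscle. Its log2 difference was -1.42 ± 0.51 (SE, adjusted p = 0.037), called lower in brain beside ATP6, as 2 of 13 rows tested (23.2% of all goat genes were called higher in muscle and 31.4% higher in brain). The call was lost in 5 of 13 alternatives, among them library totals alone, where the difference was -0.64 ± 0.49 (SE, adjusted p = 0.27), and leaving out brain C or muscle C. COX3, at MT:8970-9750 in cattle, had 6987, 6216 and 8696 CPM in sheep brain and 2799.9, 3231 and 3159 CPM in sheep muscle, without overlap, and its log2 difference of 0.34 ± 0.31 (SE, adjusted p = 0.39) was not called. With library totals alone it was 1.25 ± 0.24 (SE, adjusted p = 0.0038) and called.

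ATP synthase takes ATP6 and ATP8, both in its membrane part, from this molecule. Cattle ATP6 had 26019, 27535 and 25264 CPM in brain and 10693, 11551 and 10298 CPM in muscle. Sheep ATP6 had 539, 383 and 2934 CPM in brain and 178, 171 and 1281 CPM in muscle, and C was the highest library in each tissue. Goat ATP6 had 231, 264 and 188 CPM in brain and 191, 179.7 and 553 CPM in muscle, where muscle C stood far above the other libraries. The goat log2 difference of -1.24 ± 0.47 (SE, adjusted p = 0.047) was called and lost that call in 8 of 13 alternatives, with -0.42 ± 0.22 (SE, adjusted p = 0.12) without muscle C and -0.44 ± 0.43 (SE, adjusted p = 0.4) with library totals alone. ATP8 had 4335, 4965 and 4261 CPM in cattle brain and 1.73, 3.42 and 1.25 CPM in goat brain. The ATP8 row overlaps the start of ATP6, and how reads in such overlaps were counted is not given in the sources used here.

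In cattle all 13 protein-coding rows had higher CPM in every brain library than in any muscle library, with ratios of group means from 1.55 to 2.90. None of the 13 was called under TMM, where 33.9% of all cattle genes were called higher in brain and 25.3% higher in muscle. Their log2 differences ran from -0.03 (COX2) to 0.87 (ND2) with a median of 0.59, against a median of 0.09 over all genes. Of the 13, 6 had an adjusted p below 0.05 by edgeR without reaching the 2-fold limit. With library totals alone, 11 of 13 were called higher in brain, all but COX2 and ND3, where 44.6% of all genes were called so. In sheep that scaling called 2 of 11, ND1 and COX3 (45.5% of all genes), and in goat 1 of 13, ND2 (44.9% of all genes).

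**Figure D4:**
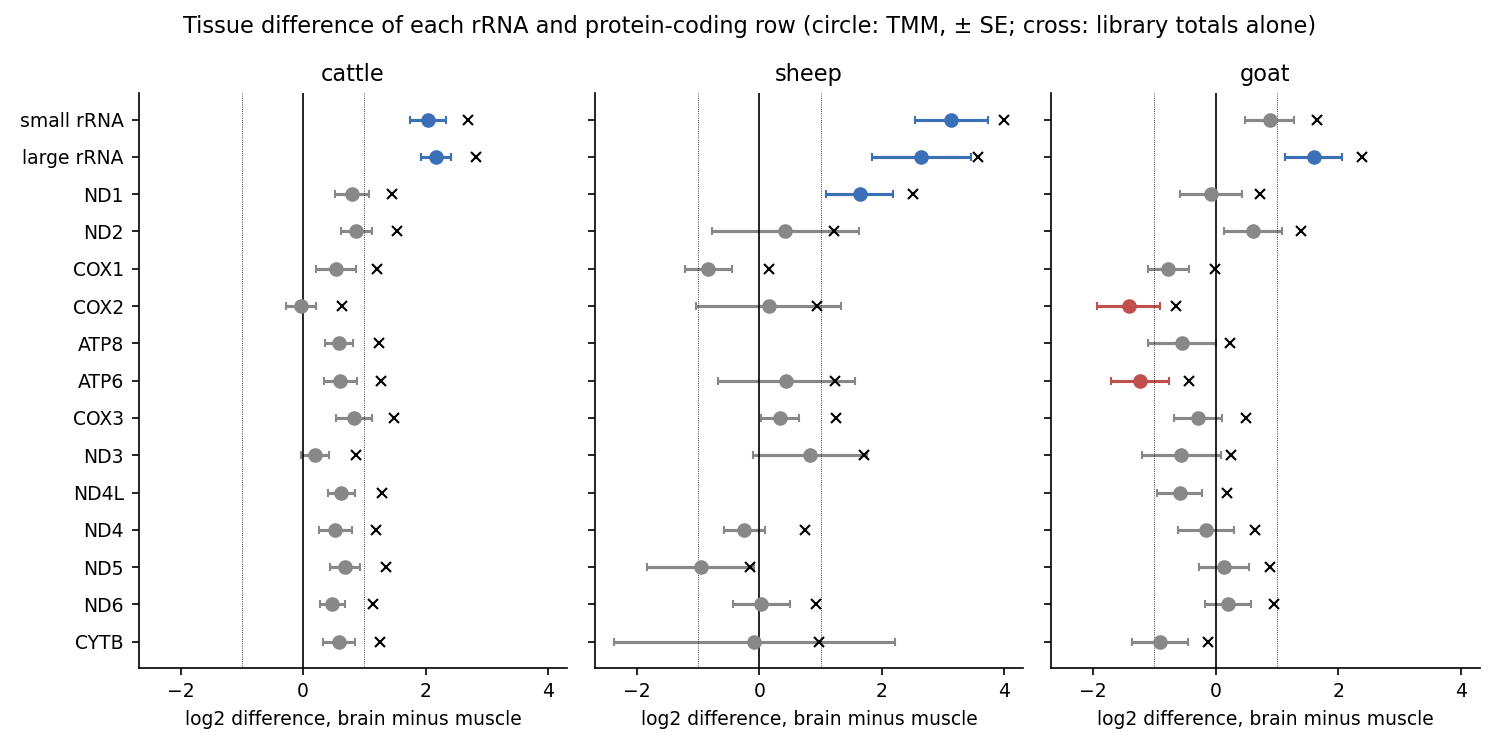
Log2 difference, brain minus muscle, of each rRNA and protein-coding row in cattle, sheep and goat, with circles and SE bars for TMM scaling (blue called higher in brain, red called lower, grey not called) and crosses for library totals alone; dotted lines mark the 2-fold limit. The rRNA rows lie at 0.89 to 3.13, protein-coding rows mostly between -1 and 1, and every cross lies to the right of its circle.

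Both rRNAs were higher in brain than in muscle in all 3 species, without overlap of the libraries in CPM or in share of mitochondrial counts. The small rRNA, at MT:431-1385 in cattle, had 1620.5, 1768 and 1613 CPM in cattle brain and 267, 161 and 341 CPM in cattle muscle. In sheep it had 639, 543 and 1532 CPM in brain and 46.6, 43.7 and 80.01 CPM in muscle, with C the highest library in both tissues. In goat it had 835, 519 and 343 CPM in brain and 122, 173 and 242 CPM in muscle. The goat row spans 569 bases and the cattle and sheep rows 955 and 958, so goat levels cover less of the gene.

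Small rRNA rose in brain by a log2 difference of 2.04 ± 0.29 (SE, adjusted p = 2.7e-04) in cattle and 3.13 ± 0.60 (SE, adjusted p = 0.005) in sheep. The goat value was 0.89 ± 0.40 (SE, adjusted p = 0.083) and not called, and 1.23 ± 0.39 (SE, adjusted p = 0.023) and called without goat muscle C. In sheep it was 2.65 ± 0.18 (SE, adjusted p = 3.3e-05) without both C libraries.

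The large rRNA, at MT:1453-3023 in cattle, had 3572, 3813 and 3710.0 CPM in cattle brain and 632, 389.9 and 537 CPM in cattle muscle. Goat had 2398, 2241 and 1061 CPM in brain and 263, 254 and 570.4 CPM in muscle, also without overlap. Sheep had only 64, 57 and 41 counts in brain and 1, 16 and 4 counts in muscle, and its mean per kb in sheep brain was 0.0524% of that in cattle brain. Log2 differences were 2.17 ± 0.25 (SE, adjusted p = 6.5e-05) in cattle, 1.60 ± 0.46 (SE, adjusted p = 0.015) in goat and 2.65 ± 0.81 (SE, adjusted p = 0.033) in sheep, where the row passed the filter on low counts through brain alone and the muscle counts are too few to size the change. The sheep call was lost in 4 of 14 alternatives and the goat call in 2 of 13, all of them with a library left out.

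Together the rRNA rows held 2.198 ± 0.116% of mitochondrial counts in cattle brain and 0.768 ± 0.193% in cattle muscle (SD, n = 3). Goat values were 7.21 ± 0.974% and 2.45 ± 0.217%. Sheep brain ranged from 1.22% to 5.74%, with C the highest, and sheep muscle from 0.151% to 0.304%. The libraries hold RNA selected on oligo(dT), and these levels describe that fraction.

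The tRNA rows are numbered 1 to 22 along the molecule from its first row. Apart from the last row, they held 0.0410% ± 0.00177 of mitochondrial counts in cattle brain and 0.0243% ± 0.00593 in cattle muscle (SD, n = 3), and 9 of 22 sheep rows and 4 of 22 goat rows had no count in any library. The filter on low counts kept 20 tRNA rows in cattle, 4 in sheep and 7 in goat. Of these, 8 in cattle, 3 in sheep and 5 in goat passed through the brain libraries alone. Such rows had to differ, and nothing is read from their calls. Of the 12 cattle rows that passed in each tissue by itself, 5 were called higher in brain and 0 lower. Of all cattle genes 33.9% were called higher in brain and 25.3% higher in muscle, without a limit to genes that passed in each tissue. On the strand of most mRNAs 5 of 6 such rows were called, with log2 differences from -0.44 to 3.85, and on the other strand 0 of 6, with -0.67 to 0.89. In sheep 1 such row and in goat 2 were left, and none of them was called.

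tRNA row 6, at MT:4197-4265 in cattle just before ND2, had 36.4, 33.7 and 29.9 CPM in cattle brain and 1.81, 1.74 and 1.28 CPM in cattle muscle. Goat had 7.12, 4.39 and 4.06 CPM in brain and 0.559, 0.0399 and 0.466 CPM in muscle at the same row, and sheep had no count in any library. Log2 differences were 3.71 ± 0.21 (SE, adjusted p = 1.1e-06) in cattle and 3.11 ± 0.70 (SE, adjusted p = 0.0041) in goat, where the row passed the filter through brain alone. In sheep, row 21 had 96, 83 and 33 counts in brain and 2, 0 and 1 in muscle, and row 14 had 14, 16 and 43 and 0, 0 and 0. Both passed the filter through brain alone, so their calls are not read. Row 20, on the other strand beside ND6, had 7.52, 8.28 and 6.64 CPM in cattle brain and 8.68, 8.74 and 5.18 CPM in cattle muscle, with a log2 difference of -0.67 ± 0.26 (SE, adjusted p = 0.041) that was not called. Row 9 in goat had 10.2, 12.7 and 12.4 CPM in brain and 3.78, 6.43 and 10.9 CPM in muscle and was not called (-0.05 ± 0.43 (SE, adjusted p = 0.93)).

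The last tRNA row, 66 bases at MT:15726-15791 in cattle on the strand of ND6, was far above all other tRNA rows. It had 8634, 5653 and 4652 CPM in goat brain and 4125, 5815 and 7706 CPM in goat muscle. Sheep had 2620.4, 2079.8 and 1046 CPM in brain and 2033, 1646 and 1467 CPM in muscle, and cattle 797, 867 and 637 and 498, 345 and 459.6 CPM. Its share of mitochondrial counts was 27.3 ± 2.78% in goat muscle, 6.38 ± 1.35% in sheep muscle and 0.429 ± 0.0745% in cattle muscle (SD, n = 3). In goat brain its mean of 6313 CPM lay between those of ND2 (9037 CPM) and ND4 (6267 CPM), the protein-coding rows of highest CPM there. Levels per kb are not compared for a row this short. By edgeR's test cattle had a log2 difference of 0.17 ± 0.23, sheep -0.84 ± 0.34 and goat -0.67 ± 0.41 (SE), and none was called.

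Counts over the whole set were 15 rows called higher in brain and 0 lower of 35 tested in cattle, 6 and 0 of 17 in sheep, and 5 and 2 of 22 in goat, where 33.9%, 28.5% and 31.4% of all genes were called higher in brain. Among the rows that passed the filter in each tissue by itself, 7 of 27 in cattle, 2 of 13 in sheep and 1 of 17 in goat were called higher. The shares over all genes were not limited in that way, so no comparison with them is drawn. A fit over all 18 libraries with species as a term tested 34 of the 35 matched rows and called 17 higher in brain and 0 lower, where 31.7% of all matched genes were called higher in brain and 21.7% higher in muscle. These 17 were both rRNA rows and 15 tRNA rows, and no protein-coding row. Among the tRNA rows, rows 2, 4, 5, 7, 15, 18, 19 and 21 had passed the cattle filter through brain alone. Row 8 was kept by the filter in no species alone, with 24 brain and 2 muscle counts in cattle and 27 and 1 in goat. Nothing is therefore read from their calls or from 17 set against the share of all genes. Only 7 of the 15 tRNA rows had counts in all 3 species. Sheep had no count for 7 of the 15 and goat for 3, with 2 of them counted in cattle alone, so these calls rest on the species with counts. Library totals alone gave 23, with ND1, ND2, COX3 and ND6 among them (47.2% of all genes). Differences over the 3 species were 2.04 ± 0.38 for the small rRNA and 2.08 ± 0.33 for the large rRNA (SE), and each was called in 26 of 26 alternatives.

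Whether the tissue difference itself differed between species was tested by the interaction term over the 34 rows. Rows with counts in both tissues of both species were 21 for cattle and sheep, 28 for cattle and goat and 19 for sheep and goat. In that order 8, 3 and 9 rows had no count in a species and could not be called by edgeR. No row was called for cattle against sheep or cattle against goat by edgeR, where 19.0% and 12.7% of all genes were called. For sheep against goat 1 row was called (7.09% of all genes), the small rRNA, with a difference of 2.40 ± 0.69 (SE, adjusted p = 0.046). That call held in 9 of 26 alternatives. Without both sheep C libraries ND5 was called in place of it, with -2.30 ± 0.57 (SE, adjusted p = 0.029) for sheep minus goat and 2.89 ± 0.58 (SE, adjusted p = 0.0027) for cattle minus sheep.

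Nuclear genes that serve the same complexes went the other way from the rRNAs, with most of those called being lower in brain. In the fit over 3 species all nuclear genes had a median log2 difference of 0.13, with 31.6% called higher and 21.7% called lower in brain. Core subunits of complex I encoded in the nucleus were called lower in brain in 6 of 6 tested and had a median of -2.11. NDUFV2, which takes part in NADH oxidation, had 77.3, 71.02 and 84.4 CPM in cattle brain and 329.9, 209 and 297 CPM in cattle muscle, with a log2 difference of -2.44 ± 0.15 (SE, adjusted p = 2.4e-11). NDUFS7 and NDUFS3 had differences of -2.40 ± 0.23 (SE, adjusted p = 2.7e-08) and -1.88 ± 0.20 (SE, adjusted p = 1.3e-07). Complex II, whose subunits are all nuclear, was lower in 3 of 3, with SDHC at -2.68 ± 0.13 (SE, adjusted p = 8.1e-13), SDHD at -2.82 ± 0.15 (SE, adjusted p = 3.5e-12) and SDHB at -2.27 ± 0.20 (SE, adjusted p = 4.9e-09).

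Subunits of complex III were lower in 2 of 3 tested, UQCRC2 at -2.32 ± 0.18 (SE, adjusted p = 8.6e-10) and CYC1 at -1.84 ± 0.21 (SE, adjusted p = 3.0e-07), with UQCRH at -0.93 ± 0.21 (SE, adjusted p = 7.0e-04) not called, or at -1.05 and called without both sheep C libraries. Complex III had 3 of 9 listed genes tested over 3 species and complex IV 3 of 10. In cattle alone 8 of 9 tested were lower for complex III, and 6 of 9 lower and 2 higher for complex IV. Of all nuclear cattle genes 25.4% were called lower and 33.9% higher. Over 3 species complex IV split, with COX5A at -2.12 ± 0.19 (SE, adjusted p = 7.4e-09) and COX4I1 not called at -0.67 ± 0.21 (SE, adjusted p = 0.0092). COX7A2, the liver-type isoform of a subunit that has another isoform in muscle, was higher in brain at 1.49 ± 0.27 (SE, adjusted p = 6.2e-05). ATP synthase subunits were lower in 11 of 12 tested with a median of -1.58, among them ATP5PB at -1.91 ± 0.15 (SE, adjusted p = 1.4e-09), ATP5MC2 at -2.05 ± 0.17 (SE, adjusted p = 3.2e-09), ATP5F1A at -1.54 ± 0.14 (SE, adjusted p = 1.2e-08) and ATP5F1B at -1.56 ± 0.15 (SE, adjusted p = 2.1e-08). With library totals alone 4 of the 12 were called lower, without ATP5F1A at -0.75 and ATP5F1B at -0.79.

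Genes that make, process or translate mitochondrial RNA were lower in brain where called, with few exceptions. Of the transcription list 3 of 7 were called lower, with TEFM, the elongation factor, at -2.01 ± 0.18 (SE, adjusted p = 7.6e-09), TFB2M, which opens the promoter, at -1.81 ± 0.17 (SE, adjusted p = 2.1e-08) and MTERF1 at -1.10 ± 0.25 (SE, adjusted p = 7.1e-04), while MRPL12 was not called at -0.57 ± 0.24 (SE, adjusted p = 0.037). RNA processing and decay had 14 of 23 called lower and 0 higher, with FASTKD2 at -2.02 ± 0.13 (SE, adjusted p = 6.1e-11), the rRNA methyltransferase NSUN4 at -2.74 ± 0.23 (SE, adjusted p = 3.0e-09), TBRG4 at -1.85 ± 0.18 (SE, adjusted p = 2.4e-08) and PTCD2 at -1.68 ± 0.18 (SE, adjusted p = 8.7e-08). Mitochondrial ribosomal proteins had 21 of 44 lower and 1 higher, with MRPL39 at -2.35 ± 0.17 (SE, adjusted p = 2.5e-10), MRPL45 at -1.58 ± 0.12 (SE, adjusted p = 6.2e-10), MRPL35 at -2.14 ± 0.18 (SE, adjusted p = 2.8e-09), MRPL48 at -1.94 ± 0.17 (SE, adjusted p = 5.9e-09), and MRPS26 higher at 1.07 ± 0.27 (SE, adjusted p = 0.0017). Without both sheep C libraries MRPS26, at 0.76, and MTERF1, at -0.91, were not called, and ribosomal proteins had 26 of 44 lower and 0 higher.

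Upkeep of mitochondrial DNA had 4 of 9 called lower and 1 higher. SSBP1, which coats single-stranded DNA, was at -1.20 ± 0.12 (SE, adjusted p = 6.6e-08), the helicase TWNK at -1.71 ± 0.21 (SE, adjusted p = 6.0e-07) and POLG2 at -1.70 ± 0.21 (SE, adjusted p = 8.9e-07), while TK2, the mitochondrial thymidine kinase, was higher in brain at 1.39 ± 0.27 (SE, adjusted p = 1.6e-04). Regulators of mitochondrial content had 4 of 10 lower, ESRRA at -1.99 ± 0.21 (SE, adjusted p = 8.7e-08), PPARA at -1.81 ± 0.30 (SE, adjusted p = 2.5e-05), PPARGC1B at -2.74 ± 0.46 (SE, adjusted p = 3.1e-05) and GABPA at -1.16 ± 0.20 (SE, adjusted p = 3.2e-05). With library totals alone MTERF1 (-0.30), PTCD2 (-0.90), MRPL45 (-0.81), SSBP1 (-0.40), TWNK (-0.92), POLG2 (-0.91) and GABPA (-0.36) were not called. Under that scaling the medians of the transcription, DNA upkeep and complex IV lists turned positive, at 0.19, 0.14 and 0.10, all below the 0.91 of all nuclear genes. The lists describe tissue as a whole, and the part of fibre type and cell makeup in these differences was not tested.

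**Figure D5:**
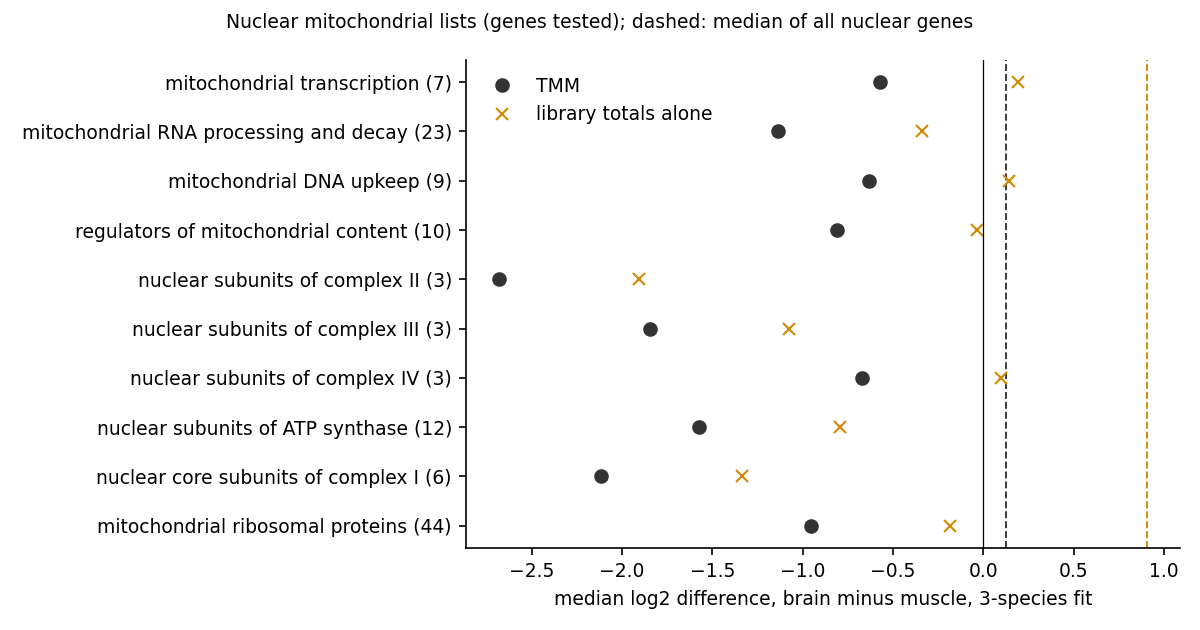
Median log2 difference, brain minus muscle, of 10 lists of nuclear genes for mitochondria in the fit over 3 species, with the number of genes tested in brackets, circles for TMM scaling, crosses for library totals alone and dashed lines at the median of all nuclear genes under each. All circles lie below 0, from -2.68 to -0.57, and all crosses lie below 0.91, their dashed line.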

How the data were processed

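Gene counts were deposited as one table per library, and per the file headers they are raw featureCounts counts with a gene length in bases. Per the submitters' processing notes, reads were trimmed with Trimmomatic 0.39, aligned with STAR 2.7.6 and counted with featureCounts, and ARS-UCD1.2 is the build named for every sample, sheep and goat included. For strand, multiple matches, overlaps and the sheep and goat builds, the setting is not given in the sources used here. Cattle symbols came from RefSeq ARS-UCD2.0, for 16972 genes. Sheep and goat rows were matched to cattle, mitochondrial rows by start and nuclear genes by the lengths of neighbouring exons (11632 in 3 species, 10449 with a symbol).

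The counts were used as deposited. Tests used edgeR 4.0.16 in R 4.3.3 (glmQLFit, robust, filterByExpr, TMM), with DESeq2 1.42.0 and limma 3.58.1 (voom) as alternatives, on all genes tested, and with gene length as an offset over the 3 species. The fits of brain against muscle were run on simulated data that gave all genes the same dispersion between libraries. The interaction fits were not, and nothing is read from these runs. Groups of 3 libraries cannot be tested for outliers. Named genes were all protein-coding and rRNA rows, the 3 tRNA rows of highest mean CPM per species, and per nuclear list up to 4 genes of lowest adjusted p and up to 2 called against the list median. A nuclear gene that this rule names is not reported here. tRNA row 21 and row 14 in sheep, row 9 in goat and row 20 in cattle follow that rule. The search for sheep rows that move with the C libraries, leaving out both of them, and the split of rows by the tissue through which they passed the filter (at least 10 counts at the median library total in all 3 libraries) were chosen after their values were seen. Members and lists were chosen with earlier results of these data known.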

Additional observations from a re-analysis of the deposited data

Results flagged for a closer look

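The small rRNA had a tissue difference that differed between sheep and goat by the interaction term, 2.40 ± 0.69 (SE, adjusted p = 0.046) on the log2 scale by edgeR's test, with brain above muscle in 3 of 3 libraries of each species. Over the alternatives the difference ran from 1.57 to 2.80 and the adjusted p from 0.0091 to 0.12, and the call was kept in 9 of 26. The goat row covers 569 bases against 958 in sheep, and the part of this in the difference was not tested.

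A nuclear sheep row outside the mitochondrial molecule moved with the C libraries. It spans 264 bases at X:62062453-62062716 in the sheep files and had 5983 CPM in brain C and 1515 CPM in muscle C. In brain A and B it had 7.15 and 4.08 CPM, and in muscle A and B 4.36 and 4.37 CPM. Of 14041 nuclear sheep rows with at least 100 counts over the brain libraries it was the only row that was at least 8-fold higher in C than in A and in B in both tissues, and 0 were as much lower. Of 15 mitochondrial rows with such counts 0 were higher by that measure and 1, CYTB, was lower. The row was found after its values were seen, and no relation between it and CYTB was tested.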

How the results depend on the processing

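No called value of the 15 protein-coding and rRNA rows changed sign in any alternative run. Of the 723 values that were uncalled in the chosen and the alternative fit, 78 changed sign, 15 of them with library totals alone. With library totals alone the cattle count went from 15 to 29 of 35 tested. The share of all cattle genes called higher in brain went from 33.9% to 44.6%. Over 3 species, nuclear genes called lower in brain went from 21.7% to 10.3%, and those called higher from 31.6% to 47.1%. Beside these shares, RNA processing and decay went from 14 calls (all lower in brain) to 6 (4 lower, 2 higher) of 23 tested. DNA upkeep went from 5 (4 lower, 1 higher) to 2 (both higher) of 9. ATP synthase went from 11 to 4 (all lower) of 12. Ribosomal proteins went from 22 (21 lower, 1 higher) to 10 (8 lower, 2 higher) of 44. In cattle alone calls were 5 of 10 tested for transcription, 3 of 10 for DNA upkeep and 7 of 10 for regulators. They were 8 of 9 each for complexes III and IV and 43 of 72 for ribosomal proteins, all lower in brain but 2 of complex IV. Of all nuclear cattle genes 25.4% were called lower and 33.9% higher. These lists, but for the regulators, had more genes tested in cattle alone than over 3 species. For cattle against sheep, cattle against goat and sheep against goat, edgeR called 0, 0 and 1 rows, with an unadjusted p below 0.05 for 3, 4 and 2. In that order DESeq2 called 1, 4 and 3, and limma-voom 7, 7 and 4. All limma-voom calls were tRNA rows but for 1 protein-coding row for cattle against sheep. Some tRNA rows had no count in sheep or goat. The share of all genes called by DESeq2 and limma-voom is not given here, so nothing is read from their counts. Scaling from rows other than MT gave 0 for sheep against goat. Without both sheep C libraries cattle against sheep gave 2. Sheep brain against muscle then gave 8 calls of 18 tested (7 higher in brain, 4 of them tRNA rows, and 1 lower). The share of all genes called is not given for these runs or for those that leave out 1 library. Nothing is read from their counts. Leaving out a library in turn gave 14 to 19 calls in cattle, 3 to 7 in sheep (3 without muscle A), 3 to 8 in goat (3 without brain A) and 14 to 18 over 3 species, and 0 to 1, 0 to 2 and 0 to 1 for the interactions in that order. With 3 libraries per group, leaving out 1 cannot move a mean by 1 SD, so those runs do not test the MT share. Without the rRNA rows, without the last tRNA row or with protein-coding rows alone, its group means moved by less than 1 SD. Goat SDs were wide, at 0.924 points in brain and 0.861 in muscle. With protein-coding rows alone the goat mean went from 3.338% to 2.458% in brain and from 2.201% to 1.558% in muscle. Cattle went from 24.47% to 23.85% and from 10.11% to 9.989%, and sheep from 4.033% to 3.75% and from 2.705% to 2.527%.

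The chosen fits did not pair libraries by letter, since no label says that a letter marks the same animal. Deviations of same-letter libraries correlated at 0.021, 0.037 and -0.037 in cattle, 0.140, 0.107 and 0.068 in sheep and 0.204, -0.164 and -0.016 in goat for A, B and C. In sheep each library correlated best with its own letter. Sheep brain C and muscle C also shared the near lack of CYTB counts and a mitochondrial profile (Spearman 0.967). These are hints from the data and not the design. With a replicate block by letter, goat calls went from 7 to 4 and sheep against goat from 1 to 0. Sheep gave 5, cattle 15 and the 3 species together 16. The share of all genes called with that block is not given here, so these counts are not read. Low counts limit the sheep large rRNA, ND5, ND6 and most tRNA rows outside cattle. Sheep muscle totals (43007347 to 46302643 counts) lay within those of cattle muscle (40878387 to 53560617). Sheep brain totals (25162316 to 30432512) lay below those of cattle brain (42891698 to 58514630), and goat totals (20730803 to 29496749) below all cattle totals. Why these rows were low was not tested.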

Other observations

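The 264-base sheep row on X lies in a run of 3 rows on the minus strand, with lengths of 297, 264 and 75 bases. A run with the same lengths, strand and spacing to within 20 bases stands on a contig of the sheep files that is placed on no chromosome, and none was found in the cattle or goat files. There the 264-base row, at 5764 to 6027, held 12713, 11190.2 and 17547 CPM in sheep brain A, B and C and 5436, 6943 and 5487 CPM in muscle, so it was high in every sheep library. The 297-base rows had 49.2, 107 and 52.9 CPM in brain on the contig and 0.0397, 0.0340 and 0.887 CPM on X, where C was again the highest. No sequence was compared, so what these rows hold was not tested.

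Slow fibre markers, which include myosin and troponin genes of oxidative muscle, and the mitochondrial share had the same order among sheep muscle libraries. In cattle and goat muscle their orders differed. In sheep muscle both ran from A (6023 CPM, 2.56%) over C (7519 CPM, 2.63%) to B (9048 CPM, 2.92%). In cattle muscle A was highest in both (39899 CPM, 10.6%), while B had 13283 CPM and 10.1% and C 19961 CPM and 9.67%. In goat muscle C had the lowest slow fibre level (7707 CPM against 24971 and 25168) and the highest share (3.16% against 1.94% and 1.497%). The relation was not tested.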
